A study of Mus musculus with 10 samples.

Results

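The interferon regulatory factors (IRFs) measured here are 8 genes, Irf1, Irf2, Irf3, Irf4, Irf5, Irf7, Irf8 and Irf9, taken by name from the 36009 genes of the count table. All 8 passed the filter on low counts, which left 16041 genes. RNA came from 10 subcutaneous CT26 tumors, 1 per mouse, in wild-type female BALB/c mice. CT26 is a mouse colorectal carcinoma line. The resected piece of each tumor was collected untreated, a hydrogel loaded with poly(I:C), a synthetic double-stranded RNA, was then placed on what remained, and the mouse was followed. In 6 mice the tumor regressed completely (responders, R1 to R6) and in 4 its growth was not delayed (non-responders, NR1 to NR4). The comparison therefore asks which IRF transcripts already differed, before any treatment, between tumors with these outcomes. In bulk tumor RNA, fewer cells that express a gene and less RNA per cell cannot be told apart.

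IRFs are transcription factors with a shared DNA-binding domain that recognizes GAAA-rich elements in the promoters of interferon (IFN) genes and IFN-stimulated genes. IRF3 and IRF7 are phosphorylated after sensors such as TLR3, RIG-I and MDA5 detect viral or synthetic RNA, and they switch on type I IFN genes. IRF9 is the DNA-binding subunit of ISGF3, the complex through which type I IFN acts on its targets. IRF1 is induced by IFN-γ and drives antigen presentation genes, whereas IRF2 binds the same elements and often opposes IRF1. IRF5 acts in macrophages and dendritic cells in the induction of inflammatory cytokines. IRF4 and IRF8 bind DNA with partners such as PU.1 or BATF and shape the development of myeloid cells and lymphocytes.

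The promoters of the members on which the results turn are shown so that the elements named above can be seen in place. Sequences are from RefSeq on GRCm38.p6, written 5′ to 3′ up to the last base before the first annotated base of the gene. Capitals mark matches to a GAS element, the IFN-γ-activated site (TTCNNNGAA), or to an IRF element (GAAANNGAA), each searched on both strands from 250 bases before to 50 bases after the RefSeq start. Distances below count back from the first annotated base of the gene. Irf1 and Irf8 were the pair that varied most closely together, Irf2 held both kinds of match, and Irf5 was the member that passed the test.
Irf1 (chr11:53769764-53770013, plus strand): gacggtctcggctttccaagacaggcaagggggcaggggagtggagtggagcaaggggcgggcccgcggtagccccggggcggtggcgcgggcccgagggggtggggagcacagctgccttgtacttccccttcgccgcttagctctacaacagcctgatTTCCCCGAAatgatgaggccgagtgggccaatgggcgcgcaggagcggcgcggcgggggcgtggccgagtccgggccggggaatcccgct
Irf8 (chr8:120736108-120736357, plus strand): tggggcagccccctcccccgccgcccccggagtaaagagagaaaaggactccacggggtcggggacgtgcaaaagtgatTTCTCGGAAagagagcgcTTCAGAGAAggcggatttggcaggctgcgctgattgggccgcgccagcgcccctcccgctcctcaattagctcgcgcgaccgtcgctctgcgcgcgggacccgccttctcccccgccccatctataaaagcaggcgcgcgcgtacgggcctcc
Irf2 (chr8:46739495-46739731, plus strand): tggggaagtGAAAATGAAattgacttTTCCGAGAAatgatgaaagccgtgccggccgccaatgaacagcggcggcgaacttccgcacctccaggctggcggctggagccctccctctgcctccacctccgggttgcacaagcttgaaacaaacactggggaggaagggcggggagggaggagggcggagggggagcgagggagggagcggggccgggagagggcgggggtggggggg
Irf5 (chr6:29526375-29526624, plus strand): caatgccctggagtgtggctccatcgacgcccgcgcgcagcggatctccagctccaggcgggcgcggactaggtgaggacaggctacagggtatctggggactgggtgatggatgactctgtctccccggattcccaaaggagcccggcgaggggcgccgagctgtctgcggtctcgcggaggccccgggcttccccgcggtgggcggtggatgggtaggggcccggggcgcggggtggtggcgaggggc
The Irf1 window held 1 GAS match, TTCCCCGAA, whose first base was 90 bases before the gene. In Irf8 there were 2, TTCTCGGAA at 171 and TTCAGAGAA at 153 bases before the gene. Irf2 had the GAS match TTCCGAGAA at 211 bases and the IRF element GAAAATGAA at 228 bases before the gene. These letters were not found in the windows of Irf3, Irf4, Irf5, Irf7 or Irf9. The windows of Irf9 began after the first annotated base of that gene, so no base before the gene was searched there. Over 32851 mouse promoter windows of this length, 8.30% held a GAS match and 8.56% held an IRF element match. A match describes the letters and was not measured as a bound site.

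Of the 8 IRF genes, 1 was higher in responders at an adjusted p under 0.05 (edgeR quasi-likelihood test with Benjamini-Hochberg adjustment over 16041 genes), beside 8.06% of all genes tested. That gene was Irf5, at 1.35-fold. The estimates of all 8 were above 0, with a median log2 fold change of 0.41 against -0.0086 over all genes, of which 48.2% had an estimate above 0. At an unadjusted p under 0.05, 6 of 8 members passed, all higher in responders, where 29.1% of all genes passed in either direction and 15.6% passed as higher. A looser adjusted threshold of 0.25 was met by the same number, 6 of 8, beside 37.7% of all genes. Values of the groups did not overlap for 1 of 8 members, again Irf5, and for 10.4% of all genes.

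Library totals ran from 29065126 to 38042544 estimated counts in responders and from 23374649 to 32986456 in non-responders. Counts of single members ran from 85 for Irf4 in NR1 to 14344 for Irf1 in R5. RNA of Ptprc, which encodes the pan-leukocyte antigen CD45, differed between the groups. In CPM, the count relative to the TMM-scaled size of the library, Ptprc averaged 380.5 ± 63.1 over the 6 responders and 250.6 ± 55.6 over the 4 non-responders (SD). Its log2 fold change was 0.60 ± 0.15 (SE, adjusted p = 0.0413). Tumor NR1 had the lowest Ptprc level, 181.1 CPM, and was the lowest of 10 tumors for 7 of 8 IRF genes. Most epithelial markers were near the floor in these tumors of a colorectal carcinoma line. Exceptions were Cdh1 (2.63 to 7.03 CPM) and Muc1 (2.53 to 3.53 CPM), present in every tumor. Only 4 of 8 epithelial markers passed the filter, Epcam reached at most 0.709 CPM, and Krt8 and Krt18 were at 0 in some tumors. The sum of the 8 was 6.66 to 11.7 CPM in responders and 10.2 to 12.6 in non-responders.

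**Figure D1:**
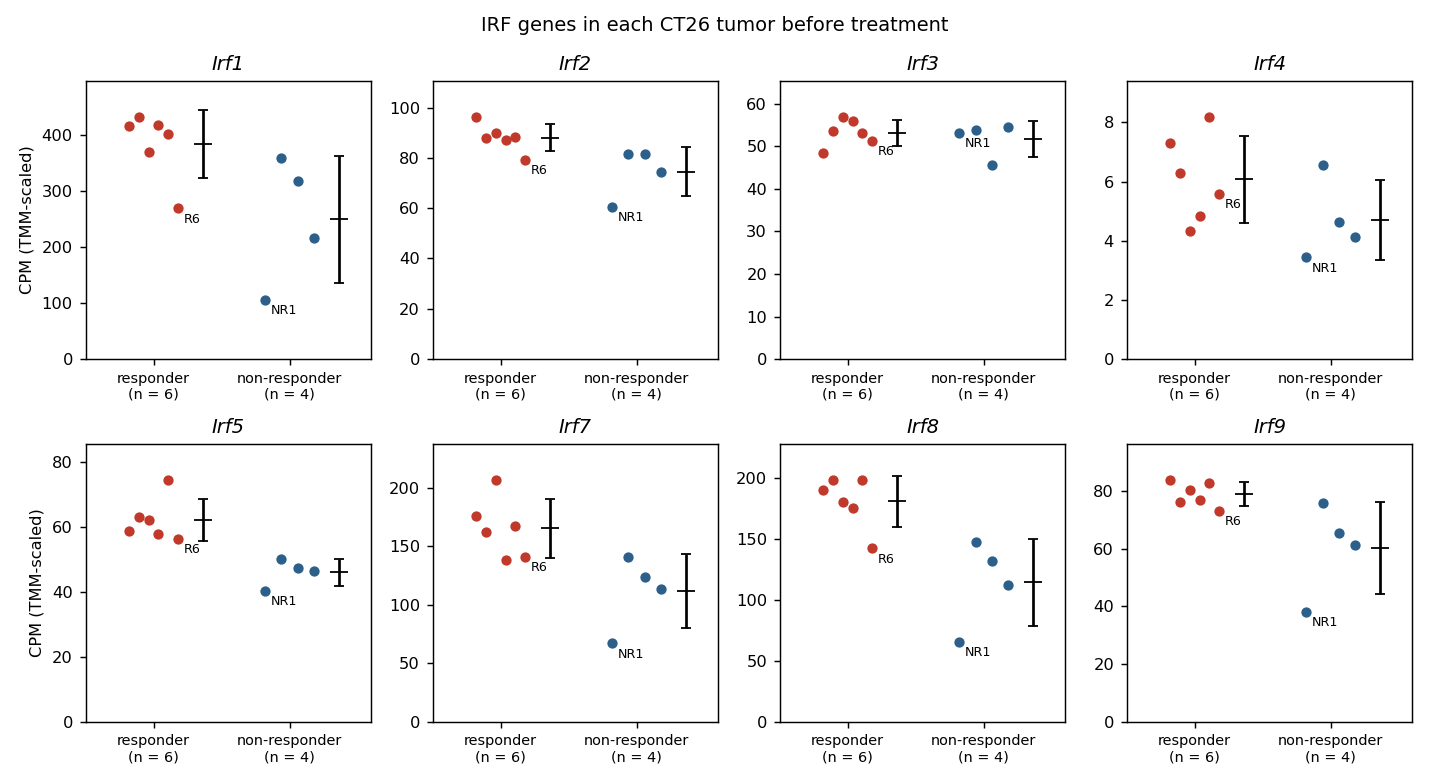
Expression of each IRF gene in CPM (TMM-scaled, linear axis from 0) in 6 responder and 4 non-responder tumors, with the mean and SD beside the points. Irf5 is the only gene whose groups do not overlap, and NR1 is the lowest point everywhere except for Irf3, where NR3 is.

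Levels can be compared between genes only per length, here as CPM per kilobase of merged exons. In this unit the responder means ran in the order Irf1 (111), Irf7 (68.4), Irf8 (52.7), Irf2 (31.7), Irf9 (24.5), Irf5 (22.6), Irf3 (20.7) and Irf4 (1.24). Over all tumors, Irf1 was above Irf7 and Irf7 above Irf8 in 10 of 10, and Irf8 was above Irf2 in 9 of 10, the exception being 1 non-responder. Irf3 and Irf5 could not be ordered, since Irf3 was above Irf5 in 5 of 10 tumors. In non-responders the mean of Irf3 (20.2) was above those of Irf9 (18.7) and Irf5 (16.8). With the length of the longest transcript in place of merged exons, the responder means of Irf5 (27.7), Irf9 (26.7) and Irf3 (26.2) lay closer together and in another order, so the order of these 3 depends on the length chosen. Irf4 was the lowest member in every tumor.

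Among the factors that RNA and Toll-like receptor signals activate, Irf5 stood highest relative to its error. Irf5 (ENSMUSG00000029771, chr6:29526625-29541871, plus strand, GRCm38) had a lowest, median and highest responder value of 56.4, 60.5 and 74.5 CPM. Non-responders NR1 to NR4 had 40.3, 50.2, 47.3 and 46.5 CPM. Every responder was thus above every non-responder, with NR2 and R6 nearest to each other. Means were 62.1 ± 6.54 (SD, n = 6) and 46.1 ± 4.17 CPM (SD, n = 4). The log2 fold change was 0.43 ± 0.08 (SE) with an adjusted p of 0.0259 by edgeR. The call was kept in 6 of 10 fits that left out 1 tumor, with adjusted p between 0.0195 and 0.0706, and was lost without R2 (0.0503), R3 (0.0613), NR1 (0.0607) or NR4 (0.0706). Its exons overlap those of Tnpo3 on the opposite strand, a nuclear import receptor gene that went the other way (135.3 ± 6.17 against 154.2 ± 7.09 CPM, SD, log2 fold change -0.19 ± 0.05 SE, adjusted p = 0.0372).

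Irf7 and Irf3, the pair that acts downstream of RNA sensing, differed in how they varied. Irf7 (ENSMUSG00000025498, chr7:141262706-141266481, minus strand), the member that IFN itself induces, had responder values of 138.2 at the lowest, 165.0 at the median and 206.9 CPM at the highest. NR1 to NR4 had 67.3, 141.4, 123.8 and 113.7 CPM. Of the responders, 4 of 6 were above all non-responders, and R4 and R6 were just below NR2. Means of 165.5 ± 25.2 and 111.6 ± 31.7 CPM gave a log2 fold change of 0.57 ± 0.18 (SE) that did not pass the adjustment (edgeR adjusted p = 0.0693, unadjusted p = 0.00892). Irf3 (ENSMUSG00000003184, chr7:44997648-45002848, plus strand), which most cells make constitutively, had 48.5, 53.4 and 56.9 CPM at the responder lowest, median and highest, and 53.2, 53.9, 45.6 and 54.5 CPM in NR1 to NR4. The groups overlapped almost wholly. Its log2 fold change was 0.04 ± 0.06 (SE, adjusted p = 0.712), and it varied least, its highest tumor being 1.25 times its lowest. Exons of Irf3 overlap those of Bcl2l12, and exons of Irf7 overlap those of Phrf1, each on the opposite strand. Neither neighbour passed the test (edgeR adjusted p = 0.365 and 0.400).

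Irf9, the DNA-binding subunit of ISGF3 (ENSMUSG00000002325, chr14:55603571-55610030, plus strand), lay in a narrow band in responders. Its responder values were 73.3 at the lowest, 78.6 at the median and 83.9 CPM at the highest, a coefficient of variation of 5.24%. NR1 to NR4 had 38.2, 75.8, 65.5 and 61.4 CPM, a coefficient of 26.4%. All responders except R6 were above NR2, and NR1 was far below the rest. The log2 fold change was 0.39 ± 0.14 (SE) and did not pass the adjustment (edgeR adjusted p = 0.102, unadjusted p = 0.0195). Exons of Irf9 overlap those of Rnf31 on the same strand, a ubiquitin ligase subunit gene with a log2 fold change of 0.31 ± 0.10 (SE, adjusted p = 0.0687), so reads in the shared part could be given to either gene.

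Irf1 and Irf2 share binding elements and differed in amplitude. For Irf1 (ENSMUSG00000018899, chr11:53770014-53778374, plus strand) the responder lowest, median and highest were 269.5, 409.0 and 431.9 CPM. NR1 to NR4 had 105.6, 358.3, 318.0 and 216.2 CPM, so R6 fell among the non-responders and the other 5 responders were above them all. Means were 384.6 ± 60.3 and 249.5 ± 113.1 CPM, the widest spread of any member. The log2 fold change was 0.62 ± 0.27 (SE, edgeR adjusted p = 0.158, unadjusted p = 0.0437), and without NR1 it was 0.38. Exons of Irf1 overlap those of Gm17334 on the opposite strand, whose mean was 3.72 CPM in responders and 2.39 in non-responders. For Irf2 (ENSMUSG00000031627, chr8:46739732-46847458, plus strand) they were 79.2, 88.0 and 96.1 CPM, and NR1 to NR4 had 60.6, 81.5, 81.5 and 74.5 CPM. R6 was again the responder inside the non-responder range. Its log2 fold change of 0.24 ± 0.08 (SE) was smaller than that of Irf1 with a tighter error, and did not pass either (adjusted p = 0.0834, unadjusted p = 0.0130; 0.16 without NR1).

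Of the lineage factors, Irf8 came close to the threshold and Irf4 did not. Irf8 (ENSMUSG00000041515, chr8:120736358-120756694, plus strand), needed for monocytes and for the dendritic cells that cross-present antigen, had 142.5, 185.5 and 198.6 CPM as the responder lowest, median and highest. NR1 to NR4 had 65.8, 147.9, 132.3 and 112.2 CPM, and R6 was the only responder that was not above all 4. Means of 181 ± 21.0 and 114.5 ± 35.7 CPM gave the largest log2 fold change of the 8, 0.66 ± 0.19 (SE), with an edgeR adjusted p of 0.0512. Without NR1 the value was 0.48, and without NR2 it was 0.81 and passed (adjusted p = 0.0297). Irf4 (ENSMUSG00000021356, chr13:30749226-30766976, plus strand), a factor of plasma cells, T cells and some myeloid cells, had 4.33, 5.93 and 8.17 CPM in responders and 3.43, 6.57, 4.64 and 4.13 CPM in NR1 to NR4. Only 2 of 6 responders were above NR2. Its log2 fold change was 0.37 ± 0.21 (SE, adjusted p = 0.271), on counts of 85 to 292 per tumor.

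**Figure D2:**
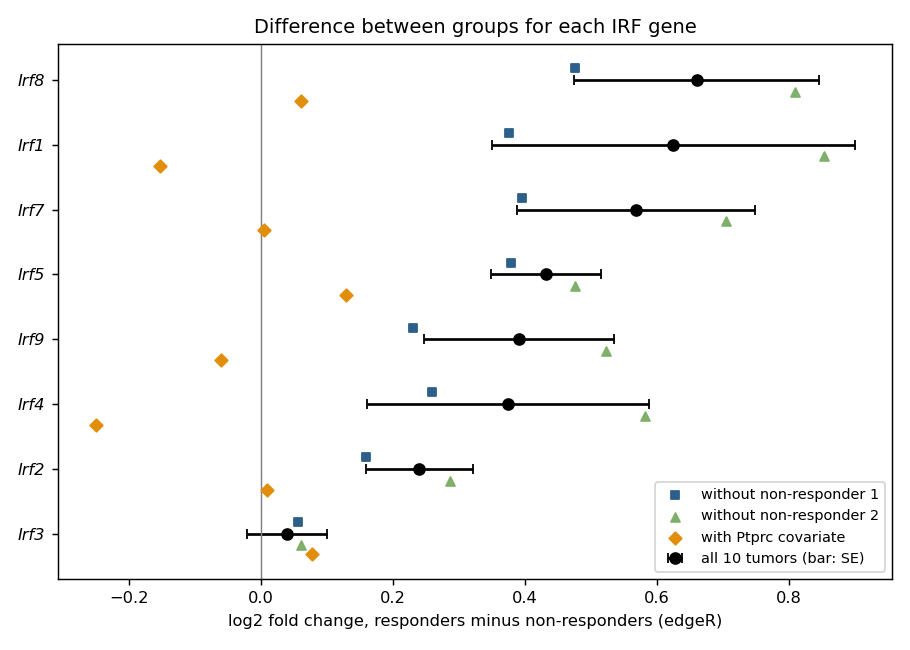
Log2 fold change of each IRF gene (horizontal axis, responders minus non-responders, edgeR) from all 10 tumors with its SE, and the estimates without NR1, without NR2 and with Ptprc as a covariate. The 8 estimates from all tumors lie between 0.04 (Irf3) and 0.66 (Irf8), and with the Ptprc covariate they lie between -0.25 (Irf4) and 0.13 (Irf5).

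Relative to Ptprc, the group differences of the IRF genes were smaller or turned. The mean log2 ratio to Ptprc was higher in responders by 0.13 for Irf1 and 0.10 for Irf8, and the differences were -0.0082 for Irf7, -0.18 for Irf9, -0.19 for Irf5, -0.24 for Irf4, -0.37 for Irf2 and -0.57 for Irf3. Irf5 had the tightest ratio to Ptprc in responders (SD 0.09) but not in non-responders (SD 0.21), where Irf9 had the tightest (SD 0.14). In the fit with Ptprc as a covariate 0 of 8 members passed at either an adjusted or an unadjusted p of 0.05 by edgeR, where 0 of all genes passed the adjusted and 5.27% the unadjusted threshold. The log2 fold changes in it were 0.13 for Irf5, 0.06 for Irf8, 0.08 for Irf3, 0.0086 for Irf2, 0.0046 for Irf7, -0.06 for Irf9, -0.15 for Irf1 and -0.25 for Irf4. Of 9 macrophage markers, 6 were called higher in responders, as Irf5 was (C1qa, C1qb, C1qc, Cd68, Adgre1 and Fcgr1). Csf1r was not called (log2 fold change 0.24, edgeR adjusted p = 0.13). Mertk was near 0 (0.031, adjusted p = 0.888) and the estimate of Mrc1 was below 0 (-0.13, adjusted p = 0.495). The summed level of the 9 was 2985 to 4446 CPM in responders against 2078 to 2819 in non-responders. Lymphocyte lists had larger median log2 fold changes than the 0.65 of the macrophage list, with fewer calls. The medians were 1.08 for 8 T cell markers (1 called, Lck; 7 at an unadjusted p under 0.05 and 6 by DESeq2), 1.52 for 7 CD8 and cytotoxic markers (2 called, Nkg7 and Cd8b1; 6 unadjusted and 5 by DESeq2) and 1.10 for 6 NK cell markers (2 called, 6 unadjusted and 5 by DESeq2). For 2 other leukocyte lists, the numbers called higher were 1 of 8 dendritic cell markers (Xcr1; 2 unadjusted and 2 by DESeq2) and 1 of 6 tested monocyte markers (Ly6c2; 4 unadjusted and 3 by DESeq2). The medians were 0.12 for the dendritic cell list and 0.49 for the monocyte list. Estimates below 0 were 3 of 8 in the former, Cd209a (-0.34), Ccr7 (-0.20) and Zbtb46 (-0.16), and 1 of 6 in the latter. Of 7 tested B and plasma cell markers, 0 were called in either direction by edgeR and 3 by DESeq2. At an unadjusted p under 0.05, 2 of these were higher in responders and 1, Sdc1, was lower (log2 fold change -0.41, edgeR unadjusted p = 0.00759). Of the remaining lists, 2 of 5 skeletal muscle markers were called higher (5 unadjusted and 4 by DESeq2, median log2 fold change 1.02). Of 6 neutrophil markers, Mmp9 was called lower, 5 estimates were below 0, and 1 was called by DESeq2. Csf3r went the other way (log2 fold change 0.42, edgeR unadjusted p = 0.0336), and S100a8 and S100a9 were near 0 (-0.087 and -0.047). By edgeR, 0 of 6 fibroblast, 0 of 5 endothelial, 0 of 4 tested epithelial, 0 of 2 tested keratinocyte and 0 of 4 tested adipocyte markers were called. At an unadjusted p under 0.05 these were 0, 0, 2, 1 and 4, and by DESeq2 0, 0, 1, 1 and 4. Of those at the unadjusted threshold, the 2 epithelial genes were lower in responders. The 1 keratinocyte gene and the 4 adipocyte genes were higher. The 4 adipocyte genes had a median log2 fold change of 2.13, the largest of the marker lists. The keratinocyte genes Krt5 and Krt14, too low to be tested, were at 3.10 and 2.17 CPM in NR2 and at most 0.0666 and 0.0344 CPM in every other tumor. The part of leukocyte, muscle, fat or skin content in the IRF differences was not tested beyond these values.

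**Figure D3:**
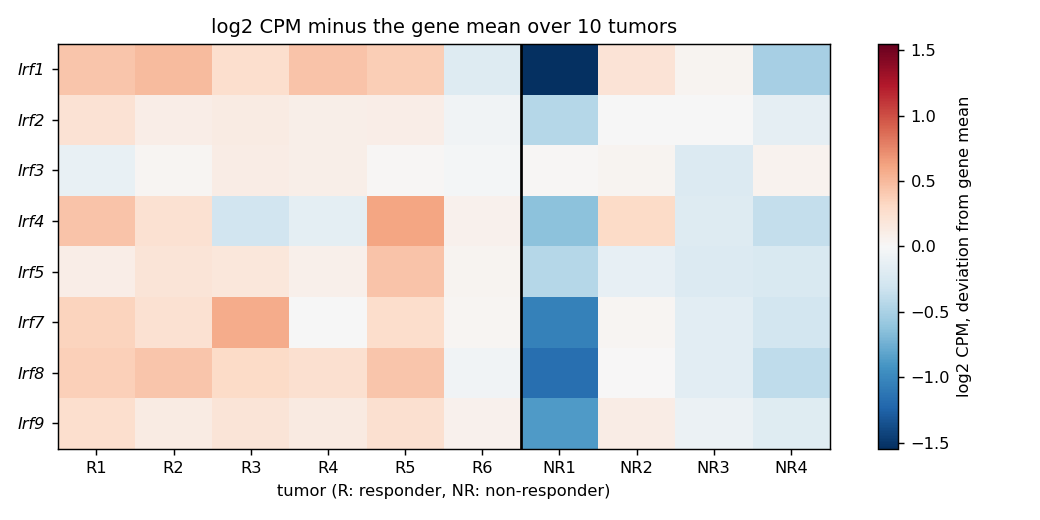
Deviation of log2 CPM from the mean of each gene over the 10 tumors, with IRF genes in rows and tumors in columns (R responder, NR non-responder). NR1 is low for every gene except Irf3, and NR2 is the highest non-responder for 7 of 8 genes.

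The non-responders were not a uniform group for these genes. NR1 was the lowest tumor for 7 members and NR3 for Irf3. NR2 was the highest non-responder for 7 members, with NR4 the highest for Irf3. Among responders, R6 was the lowest for 5 of 8 members. The coefficient of variation was larger in non-responders than in responders for 7 members, with Irf1 at 45.3% against 15.7% and Irf8 at 31.1% against 11.6%, while Irf5 had 9.06% against 10.5%. The number of members called ran from 0 (without R2, R3, NR1 or NR4) to 4 (without NR2). The share of all genes called moved too. It was 1.53% without R2, 0.11% without R3, 0.098% without NR1, 0% without NR4 and 11.7% without NR2. NR2 was also the tumor with Krt5 and Krt14 RNA, and a link to these counts was not tested.

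Ratios of 2 members in the same tumor do not depend on library scaling, and 4 were set against response in an exact permutation test, two-sided, with 210 arrangements of the 10 tumors (smallest possible p = 0.00476). The log2 ratio of Irf7 to Irf3 was 1.62 ± 0.22 in responders and 1.06 ± 0.51 in non-responders (SD). The difference of 0.57 had an exact p of 0.0238, which did not pass after adjustment over the 4 ratios (0.0952), and 5 of 6 responders were above all non-responders. For Irf1 to Irf2 the ratio was 2.11 ± 0.19 in responders and 1.61 ± 0.60 in non-responders. The gap of 0.50 did not pass (exact p = 0.0571, 0.114 after adjustment), and 3 of 6 responders exceeded every non-responder. NR1 carried the lowest value of both ratios, 0.34 and 0.80, and without it the differences were 0.33 and 0.23. The ratio of Irf8 to Irf4 differed by 0.34 (4.91 ± 0.31 against 4.57 ± 0.26, exact p = 0.119, adjusted p = 0.159). That of Irf5 to Irf4 differed by 0.05 (3.37 ± 0.29 against 3.31 ± 0.27, exact p = 0.776).

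**Figure D4:**
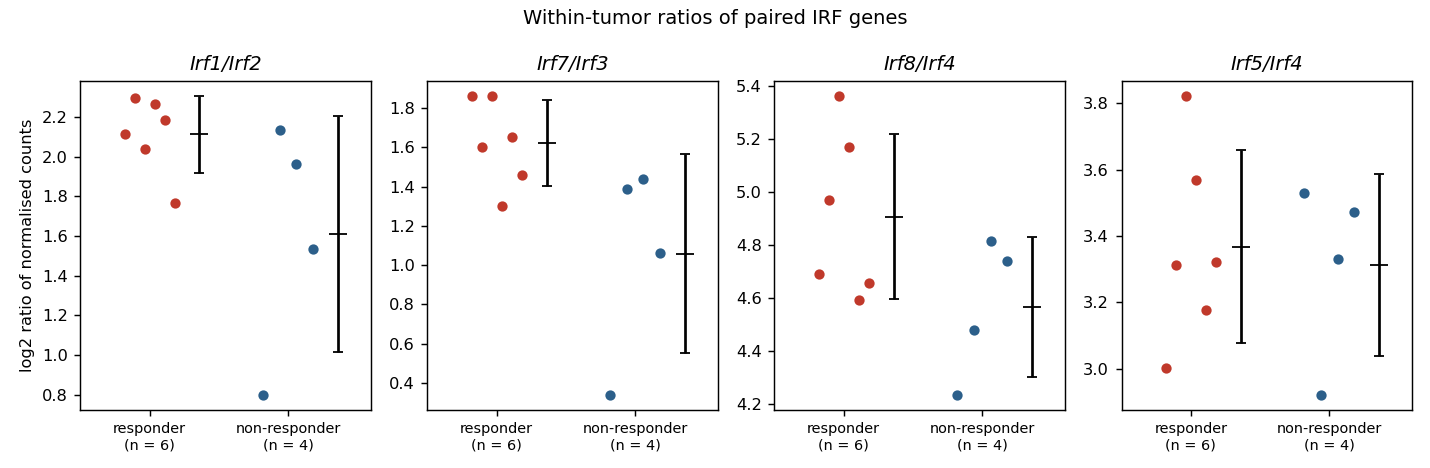
Log2 ratio of normalised counts of 4 pairs of IRF genes within each tumor (vertical axes differ and do not start at 0), for 6 responders and 4 non-responders, with mean and SD. The Irf7 to Irf3 ratio of 5 responders is above all non-responders, and the Irf5 to Irf4 ratio overlaps throughout.

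Irf1, Irf2, Irf5, Irf7, Irf8 and Irf9 varied together from tumor to tumor in most pairs once each group was centred on its mean. For each pair of these genes, r was lower within responders alone than within non-responders alone. No pair with Irf3 or Irf4 passed the test. Correlations were computed on log2 CPM over 10 tumors with each group centred on its mean, and tested by exact permutation within groups (17280 orders) with adjustment over 28 pairs. Pearson's r was positive for 22 of 28 pairs and above 0.8 for 10. By r, 11 pairs passed, and by Spearman's rho, 3 did (Irf2 with Irf7, Irf2 with Irf9 and Irf5 with Irf8). Irf1 with Irf8 had the highest r, 0.98 (exact p = 0.0022, adjusted p = 0.0154; rho 0.84, exact p = 0.0145, adjusted p = 0.0575). It was 0.92 without NR1 and NR4, the tumors farthest from the median of Irf1, and 0.92 within the 6 responders alone. Irf5 with Irf8 had an r of 0.74 (exact p = 0.0020, adjusted p = 0.0154) and a rho of 0.91 (exact p = 8.10e-04, adjusted p = 0.0138), with an r of 0.81 without NR1 and R5. Irf1 with Irf7 had an r of 0.83 (exact p = 0.0319, adjusted p = 0.0744; rho 0.53, exact p = 0.197, adjusted p = 0.262) that was 0.30 without NR1 and NR4, so it rested on those tumors. The group-centred r of Irf3 with the other members ranged from -0.34 to 0.04. Over the 11 pairs that passed by r, the value within responders alone ran from 0.49 (Irf7 with Irf8) to 0.92 (Irf1 with Irf8). Within the 4 non-responders alone it ran from 0.976 (Irf2 with Irf9) to 0.9994 (Irf7 with Irf9). Irf2 with Irf5, which did not pass, had 0.21 within responders and 0.96 within non-responders. The number of pairs that passed was 0 without R6, without NR1 or without NR4 and 15 without R3. Each of these fits had fewer orders to permute, the same number without R6 as without R3.

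**Figure D5:**
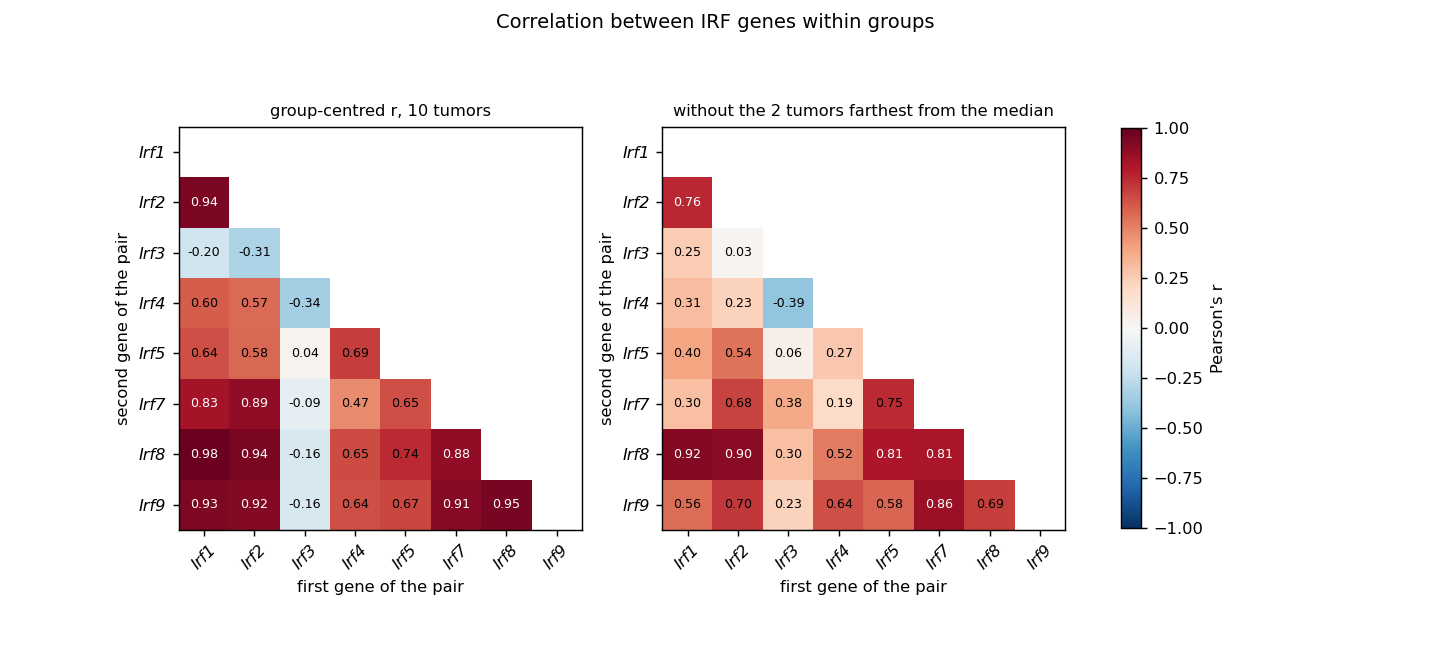
Group-centred Pearson's r of log2 CPM for each pair of IRF genes over 10 tumors (left) and without the 2 tumors farthest from the median of the first gene (right), on a color scale from -1 to 1. The row and column of Irf3 are near 0 or below on the left, and Irf1 with Irf8 stays at 0.92 on the right.

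The genes most like each member, by Pearson's r of log2 CPM over the 10 tumors among tested genes averaging at least 1 CPM, were as follows. Irf1 was closest to Batf2 (r = 0.99), a BATF-family factor, to Irgm1 (0.99), an IFN-induced GTPase, and to Gbp2 (0.98), a guanylate-binding protein. Irf8 was closest to Samhd1 (0.99), Tapbp (0.99), the tapasin gene of MHC class I loading, and Gbp11 (0.99). Irf7 was closest to H2-T24 (0.99), Ifih1 (0.99), which encodes the double-stranded RNA sensor MDA5, and Oas1a (0.98). Irf9 was closest to Ifi35, Gm4951 and the immunoproteasome gene Psmb9 (0.99 each). Irf2 was closest to Gm5970, Rtp4 and Mov10 (0.98 each).

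Irf5 was closest to Rtl5 (0.996), to the complement gene C1qc, one of the macrophage markers (0.99), and to Neurl3 (0.99). With each group centred on its mean, these were 0.99, 0.97 and 0.98. Irf4 was closest to Arg2 (0.98), Yipf1 (0.97) and Atp6v1b2 (0.96), and Irf3 to Txndc15 (0.94), Entpd4b (0.92) and Mgat4c (0.92). All 10 tumors enter each value, and the tumors share the differences in Ptprc and marker RNA given above. The values are the largest over all genes searched and are a description.

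The pathway around the IRF genes was examined through 9 lists, of which 90 genes were tested. Of these, 10 were called higher and 1 lower in responders, together 12.2% of the 90 beside 8.06% of all genes, with 76 estimates above 0 and a median log2 fold change of 0.45. Of 16 sensors, adaptors and kinases that activate IRF3, IRF5 and IRF7, 3 were called higher. Irak4, a kinase of the MyD88 complex, was 25.3 ± 1.31 against 19.8 ± 1.25 CPM (SD, log2 fold change 0.36 ± 0.06 SE, adjusted p = 0.0218). Ikbke, the IKKε kinase of IRF3 and IRF7, had a log2 fold change of 0.50 ± 0.12 (SE, adjusted p = 0.0341), and Tlr9, the sensor of CpG DNA, one of 0.78 ± 0.19 (adjusted p = 0.0372). Mavs, the adaptor of cytosolic RNA sensors, was the gene called lower, at 70.5 ± 4.60 against 82.0 ± 3.93 CPM (SD, log2 fold change -0.22 ± 0.05 SE, adjusted p = 0.0391). Tlr3, the endosomal receptor of double-stranded RNA, did not pass, at 52.0 ± 4.96 against 34.5 ± 11.7 CPM (adjusted p = 0.0726).

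IFN genes themselves were barely present. Ifnb1 averaged 0.0667 CPM in responders and 0.0580 in non-responders and was not tested, and 4 of the 9 ligand genes had 0 counts in all 10 tumors (Ifna1, Ifna5, Ifnl2 and Ifnl3). Ifng was the single ligand tested, at 3.16 ± 1.35 in responders and 1.26 ± 0.86 CPM in non-responders (SD). Its log2 fold change of 1.33 ± 0.49 (SE) missed the edgeR threshold (adjusted p = 0.102) and was called by DESeq2. Of 9 receptor, JAK and STAT genes 0 were called by edgeR and 5 had an unadjusted p under 0.05, all higher, with 2 called by DESeq2 and 0 by limma-voom. Those with the smallest p were Ifnar2 (log2 fold change 0.28, adjusted p = 0.0543), Tyk2 (0.21, 0.0632) and Stat2 (0.60, 0.119).

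Genes that IRFs are known to induce lay mostly above 0 and mostly missed the adjusted threshold. Of 17 genes that IFN-γ and IRF1 induce, all 17 had estimates above 0, 15 had an unadjusted p under 0.05 and 1 was called. That gene was Ciita, the master factor of MHC class II, at 108.9 ± 16.1 against 52.6 ± 23.7 CPM (SD, log2 fold change 1.05 ± 0.27 SE, adjusted p = 0.0423). Tapbp and Tap2, which load and transport peptides for MHC class I, followed (0.64 and 0.65, adjusted p = 0.0517 and 0.0583). Of 17 genes that ISGF3 and IRF7 induce, 16 were above 0, 11 had an unadjusted p under 0.05 and 1 was called, Bst2 (tetherin), at 202.5 ± 12.7 against 138.1 ± 33.6 CPM (SD, log2 fold change 0.55 ± 0.14 SE, adjusted p = 0.0378). Ifi44 and Oas2 followed (0.81 and 0.72, adjusted p = 0.0640 and 0.0661). Of the IRF5-linked cytokine genes, 5 of 7 were tested and 0 called by edgeR, with 2 at an unadjusted p under 0.05, 2 by DESeq2 and 0 by limma-voom, and the smallest p belonged to Ccl5 (0.91, adjusted p = 0.0695), Tnf (0.67, 0.0867) and Il1b (0.40, 0.222).

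Partners and lineage genes of IRF4 and IRF8 held 5 of the 10 genes called higher. Of 9 DNA-binding partners, Ikzf1 (IKAROS) and Spi1 (PU.1) were called. Ikzf1 was 53.9 ± 9.06 against 34.3 ± 6.08 CPM (SD, log2 fold change 0.65 ± 0.14 SE, adjusted p = 0.0310) and Spi1 59.5 ± 8.94 against 43.0 ± 2.84 CPM (0.47 ± 0.10 SE, adjusted p = 0.0318). Batf did not pass (0.55, adjusted p = 0.108). Of 12 lineage genes, 3 were called, namely Xcr1, which marks cross-presenting dendritic cells, Cadm1, and Ly6c2 of inflammatory monocytes. Cadm1, which those dendritic cells also carry, averaged 113.5 CPM in responders and 68.7 in non-responders, far above Xcr1. Which cells its RNA came from was not tested. Xcr1 was 6.13 ± 1.69 against 2.22 ± 0.68 CPM (SD, log2 fold change 1.46 ± 0.25 SE, adjusted p = 0.0222), Cadm1 had 0.73 ± 0.18 (adjusted p = 0.0383) and Ly6c2 0.86 ± 0.22 (adjusted p = 0.0401). Over the list, 9 estimates were above 0 and 3 below, with a median of 0.22. Mgl2, a gene of dendritic cells and macrophages linked to IRF4, had a log2 fold change of -0.62 ± 0.21 (SE, unadjusted p = 0.0130, adjusted p = 0.0834) and Cd209a one of -0.34 (adjusted p = 0.403). Itgae, which cross-presenting dendritic cells also carry, was at -0.016 (adjusted p = 0.964) and Flt3, the receptor of a dendritic cell growth factor, at 0.014 (adjusted p = 0.959). The IRF2-binding protein genes Irf2bp1, Irf2bp2 and Irf2bpl had 0 of 3 called and 0 at an unadjusted p under 0.05 by edgeR, with 0 called by DESeq2 and by limma-voom. Irf2bp2 had a log2 fold change of 0.13 (adjusted p = 0.224) and Irf2bpl one of 0.24 (adjusted p = 0.419). The number of these 90 genes called ran from 0 (without R3, NR1 or NR4) to 32 (without NR2). Of all genes, 0.11%, 0.098% and 0% were called without R3, NR1 and NR4, and 11.7% without NR2.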

How the data were processed

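PolyA RNA from 10 CT26 tumors was sequenced as paired-end reads. The authors quantified transcripts with Kallisto and summed them to genes with tximport on mm10 (GRCm38). They deposited expected counts per gene, fractional for 44.8% of values and not scaled to depth, so each value here starts from the authors' expected counts. The annotation release, tximport scaling and strand setting are not given in the sources used here, so reads of overlapping genes can be shared between them. Of the 36009 rows, 9633 had no deposited gene name and held 1.04% to 1.23% of the counts. They stayed in the table. Mm10 derives from another strain than BALB/c.

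Expected counts were rounded and tested in R 4.3.3 with edgeR 4.0.16 (filterByExpr with minimum count 10 and minimum total 15, TMM, glmQLFit, glmQLFTest, two-sided), with Benjamini-Hochberg adjustment over all 16041 genes and a threshold of 0.05. CPM relates the count to the TMM-scaled library, with a prior count of 2 added for log2 CPM. Alternatives were DESeq2 1.42.0, limma 3.58.1 (voom), other scaling factors, no filter, Ptprc as a covariate and leaving out each tumor. The procedure was tested on simulated data. Within-tumor ratios and correlations used exact permutation tests. Groups came from the response in the labels. Tumors are numbered in accession order, which pairs nothing, and no batch is given in the labels. The experiment was run once, so the p-values measure the spread between these tumors. The 45 pairs of libraries all differed by more than counting noise. Gene coordinates are from GENCODE M21 on GRCm38, and promoters were matched by symbol for 8 of 8 genes.

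The members, lists and tests were chosen with earlier results of these data known. Named genes were all members, the 3 genes of each pathway list with the smallest p, Tlr3, Ifnb1, Ifng, Stat2 and Ptprc, and per member the 3 genes most like it. Some genes that the rule names are not reported here. Marker genes, genes at 0 counts, Mgl2, Cd209a, Itgae, Flt3 and genes with overlapping exons were named after their values were seen.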

Additional observations from a re-analysis of the deposited data

Results flagged for a closer look

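In 24 groups of values examined (the CPM of 8 IRF genes and 4 ratios in each response group), 2 held a tumor that stood apart from its group by Dixon's criterion, where chance gives about 1.2. Irf3 was 45.57 CPM in NR3, below the other 3 non-responders, with a gap to the nearest of 0.85 of the group's range. Without NR3 the log2 fold change of Irf3 was -0.017 in place of 0.04. Irf5 was 74.45 CPM in R5, above the other 5 responders, with a gap of 0.64 of the range. R5 also had the highest Ptprc level of the 10 tumors, 499.4 CPM. Without R5 the log2 fold change of Irf5 was 0.37 and still passed.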

How the results depend on the processing

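The number of IRF genes called was 1 in the reported fit, 2 with upper-quartile factors (8.12% of all genes called), 2 with limma-voom (6.75%), 5 with DESeq2 (16.0% of the same 16041 genes), 0 with Ptprc as a covariate and 6 at an adjusted p under 0.25, and it ran from 0 to 4 when 1 tumor was left out. At an unadjusted p under 0.05 the number was 0 with the Ptprc covariate, beside 5.27% of all genes. It was 5 to 7 with 1 tumor left out, where 22.4% (without NR1) to 30.6% (without NR2) of all genes passed. Of the 90 pathway genes tested 11 were called, 32 of the same 90 with DESeq2 and 0 with the Ptprc covariate, and 0 to 32 with 1 tumor left out. Over all genes, 1293 were called, with 0 without NR4, 16 without NR1, 17 without R3, 1897 without NR2 and 0 with the Ptprc covariate. Of 128 alternative log2 fold changes of the members, 110 kept their direction and side of the threshold, 5 lost the call, 9 gained it and 4 turned: Irf1 (-0.15), Irf4 (-0.25) and Irf9 (-0.06) with the Ptprc covariate, and Irf3 (-0.017) without NR3 (0.065 without R1). The log2 differences of the ratios with 1 tumor left out ran from 0.23 to 0.68 for Irf1 to Irf2, from 0.33 to 0.69 for Irf7 to Irf3, from 0.23 to 0.42 for Irf8 to Irf4 and from -0.076 to 0.13 for Irf5 to Irf4 (-0.037 without R3, -0.076 without NR2). With NR2 left out the first passed (0.68, exact permutation, adjusted p = 0.0476), as did Irf7 to Irf3 (0.68, adjusted p = 0.0476), which also passed without R4 (0.63, adjusted p = 0.0317). Pairs of members passing ran from 0 to 15. The cause of these changes was not tested. Fewer tumors leave fewer orders to permute, the same number whichever responder is left out. No paired analysis was possible because the labels give the groups no shared replicate numbers. Ifnb1 was too low to test at this depth.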
